A study of Mus musculus with 15 samples.

Results

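*Bmi1* and 9 other genes for subunits of Polycomb repressive complex 1 (PRC1) were followed in erythro-myeloid progenitors (EMPs) of the mouse yolk sac (YS), 10 of the 17454 genes measured. The 10 genes are *Bmi1*, *Pcgf1*, *Pcgf2*, *Pcgf3*, *Pcgf5*, *Pcgf6*, *Ring1*, *Rnf2*, *Cbx7* and *Cbx8*, and each was found in the table by its symbol. They were chosen by the difference in *Bmi1* between Tie2-Ezh2-KO and WT EMPs, with the other 9 taken as its paralogs and partners. For these 10 genes that contrast is therefore a description with no test.

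PRC1 is a ubiquitin ligase of chromatin. RING1 or RNF2 carries the catalytic activity toward histone H2A, and a PCGF protein pairs with it and helps set the kind of complex. Canonical PRC1, whose CBX proteins bind the histone H3 methylation placed by EZH2 in PRC2, holds BMI1 or PCGF2. Neither is confined to it. The other PCGF proteins form variant complexes without these CBX proteins. In blood formation BMI1 is known for stem cell self-renewal and for silencing of the *Cdkn2a* locus.

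RNA was sequenced from 15 libraries, each from the EMPs of an individual YS at E10.5, sorted as LIN−SCA1−KIT+CD16/32+CD41+ cells. All embryos were Ezh2fl/fl on a C57BL/6 background. The 5 Tie2-Ezh2-KO libraries carried Tie2-CreTg/+, which is active in endothelium before EMPs emerge from it. The 5 Vav-Ezh2-KO libraries carried Vav-CreTg/+, which the study describes as active from the start of the hematopoietic stage, in emerging blood cells. The 3 Tie2-Ezh2-WT and 2 Vav-Ezh2-WT libraries lacked the Cre transgene (Tie2-Cre+/+ or Vav-Cre+/+) and were pooled as 5 WT controls for both knockouts, so the 2 comparisons share their controls.

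Levels are in RPKM, reads scaled to the length of the gene and to the reads of the library, so levels can be compared between genes. Differences are between group means of log2(RPKM + 0.2). Reads on genes ranged from 10407398 to 41025074 in Tie2-Ezh2-WT, from 14890780 to 19957939 in Vav-Ezh2-WT, from 14818723 to 26825709 in Tie2-Ezh2-KO and from 11506895 to 28714656 in Vav-Ezh2-KO libraries. The labels give 500 cells and 16 cycles of PCR per library, while the study's methods give a smaller number of cells, so reads are not independent molecules and read counts show counting error only. In sorted cells measured in bulk, fewer cells of a type and less RNA per cell cannot be told apart.

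The deleted gene, *Ezh2*, was at 36.9, 39.5 and 30.1 RPKM in replicates 4, 10 and 12 of Tie2-Ezh2-WT, at 42.0 and 41.5 RPKM in replicates 4 and 6 of Vav-Ezh2-WT, at 27.8, 26.2, 24.8, 29.5 and 26.5 RPKM in replicates 7, 9, 11, 13 and 17 of Tie2-Ezh2-KO, and at 33.7, 42.4, 37.8, 38.1 and 34.0 RPKM in replicates 1, 9, 10, 26 and 28 of Vav-Ezh2-KO. Every Tie2-Ezh2-KO value was under the lowest WT value, and the Vav-Ezh2-KO values overlapped with WT. The deleted exons were not read separately from the rest of the gene. By quantitative PCR, the study reports that the deleted exon was no longer expressed in EMPs of either knockout. In Tie2-Ezh2-KO EMPs *Ezh2* fell by 0.48 (log2, standard error 0.12, limma adjusted p = 0.0418). This call was lost in 10 of 17 alternative fits, among them 7 of the 10 that left out a library (all but those without Tie2-Ezh2-KO replicate 9 or 13 or Tie2-Ezh2-WT replicate 12), with adjusted p over all alternatives between 0.0134 and 0.344. The highest was found with only the 3 Tie2-Ezh2-WT libraries as control, where the difference was -0.39. All 3 Tie2-Ezh2-WT values lay below both Vav-Ezh2-WT values, by 0.24 on average (log2, limma adjusted p = 0.6997). In Vav-Ezh2-KO EMPs the difference was -0.02 (95% interval -0.25 to 0.21, limma adjusted p = 0.969, between 0.770 and 1 over its alternatives), and -0.17 when only the 2 Vav-Ezh2-WT libraries served as control (limma adjusted p = 0.869).

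The sorted cells carried the transcripts of their sort markers. *Kit*, which encodes a cytokine receptor, averaged 28.6 ± 2.24 RPKM (SD over n = 5) in WT, 28.0 ± 11.6 RPKM (SD over n = 5) in Tie2-Ezh2-KO and 25.2 ± 7.80 RPKM (SD over n = 5) in Vav-Ezh2-KO EMPs. *Itga2b*, which encodes CD41, was at 16.7 RPKM or more in every library, and *Fcgr3*, which encodes the CD16 Fc receptor, averaged 123.6 ± 22.3 RPKM (SD over n = 5) in WT, 89.4 ± 15.1 RPKM (SD over n = 5) in Tie2-Ezh2-KO and 130.9 ± 37.7 RPKM (SD over n = 5) in Vav-Ezh2-KO EMPs. In Tie2-Ezh2-KO EMPs *Fcgr3* differed by -0.47 (limma adjusted p = 0.131), with 4 of 5 libraries below all WT libraries, *Fcgr2b*, another Fc receptor gene, by -0.65 (limma adjusted p = 0.131), and *Ptprc*, which encodes CD45, by -0.80 (limma adjusted p = 0.322), or by -0.53 without Tie2-Ezh2-KO replicate 9. All 8 EMP markers looked at were above 1 RPKM in all 15 libraries.

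*Bmi1* lies on chromosome 2 of GRCm38 from 18677018 to 18686629. It was at 15.6, 11.5 and 10.9 RPKM in replicates 4, 10 and 12 of Tie2-Ezh2-WT and at 10.7 and 10.3 RPKM in replicates 4 and 6 of Vav-Ezh2-WT. In replicates 7, 9, 11, 13 and 17 of Tie2-Ezh2-KO its level was 38.2, 30.5, 48.5, 47.5 and 36.4 RPKM. In replicates 1, 9, 10, 26 and 28 of Vav-Ezh2-KO its level was 10.7, 22.1, 13.7, 17.2 and 9.97 RPKM. The Tie2-Ezh2-KO libraries stood apart from the other 10, with their lowest value above the highest of any other library. Vav-Ezh2-KO replicates 9 and 26 lay above every WT library, replicates 1 and 10 lay among them, and replicate 28 lay just below them.

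Mean *Bmi1* was 11.8 ± 2.18 RPKM (SD over n = 5) in WT, 40.2 ± 7.64 RPKM (SD over n = 5) in Tie2-Ezh2-KO and 14.7 ± 5.01 RPKM (SD over n = 5) in Vav-Ezh2-KO EMPs. The ratio of the Tie2-Ezh2-KO mean to the WT mean was 3.40, and the difference was 1.75 on the log2(RPKM + 0.2) scale. Between 575 and 1608 reads stood behind each WT value, between 1677 and 4575 behind each Tie2-Ezh2-KO value and between 710 and 1463 behind each Vav-Ezh2-KO value.

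**Figure D1:**
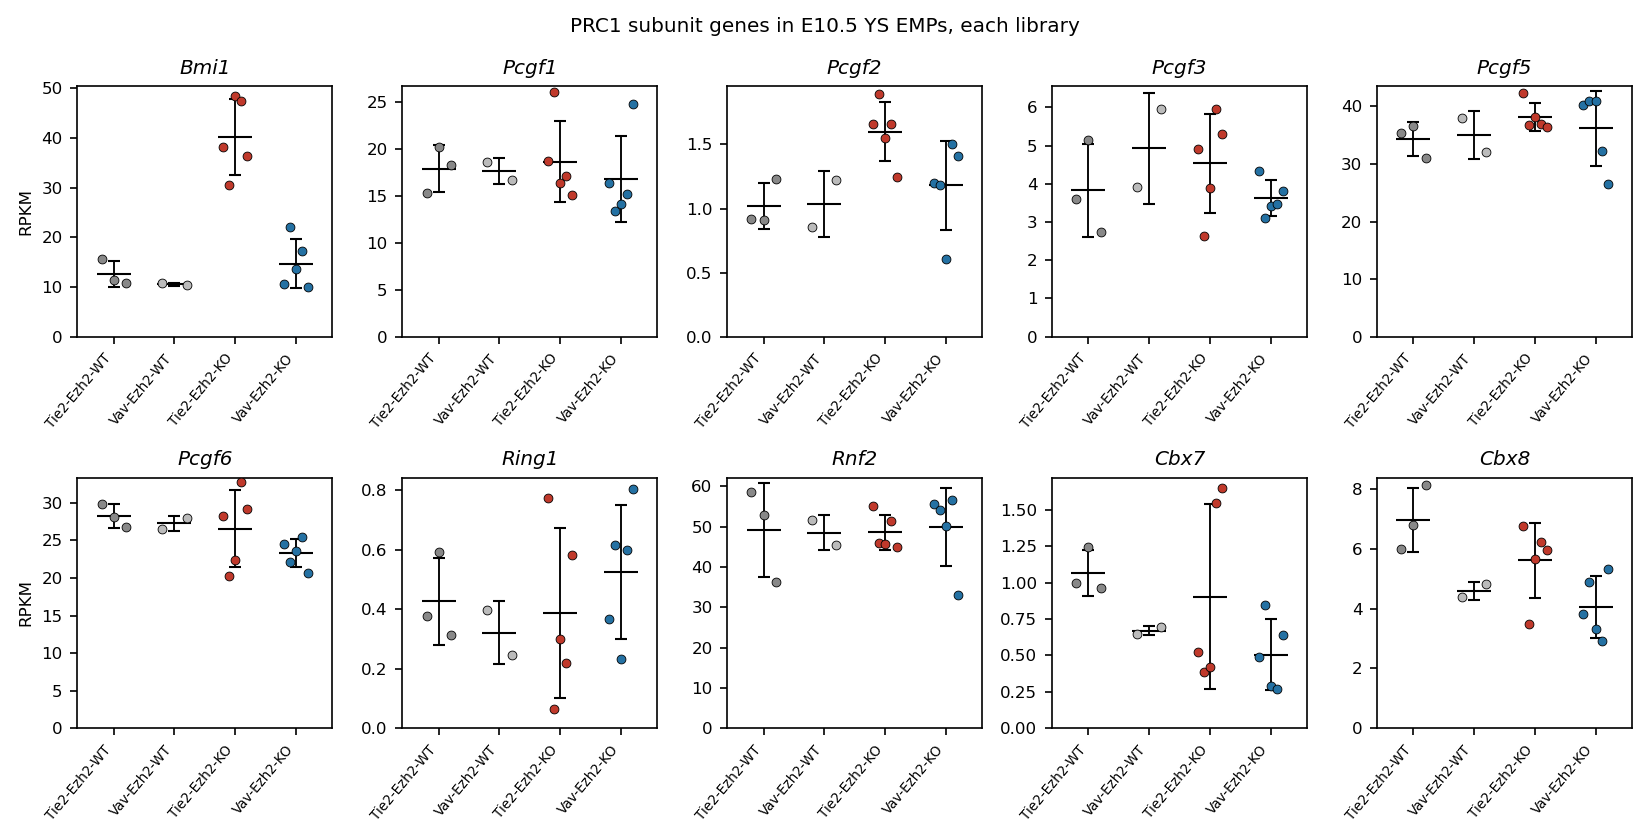
Level of each of the 10 PRC1 subunit genes in RPKM on a linear axis from 0, with 1 point per library, and the mean with its SD in 3 libraries of Tie2-Ezh2-WT, 2 of Vav-Ezh2-WT, 5 of Tie2-Ezh2-KO and 5 of Vav-Ezh2-KO EMPs. *Bmi1* is between 30.5 and 48.5 RPKM in Tie2-Ezh2-KO libraries and between 9.97 and 22.1 RPKM in all others.

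The closest paralog of *Bmi1*, *Pcgf2*, whose product takes its place in canonical PRC1, was at 0.915, 0.914 and 1.23 RPKM in replicates 4, 10 and 12 of Tie2-Ezh2-WT and at 0.852 and 1.22 RPKM in replicates 4 and 6 of Vav-Ezh2-WT. It was at 1.66, 1.89, 1.55, 1.66 and 1.25 RPKM in replicates 7, 9, 11, 13 and 17 of Tie2-Ezh2-KO and at 1.20, 1.19, 0.607, 1.502 and 1.41 RPKM in replicates 1, 9, 10, 26 and 28 of Vav-Ezh2-KO. The Tie2-Ezh2-KO libraries all lay above the WT libraries, replicate 17 by a small margin, and the Vav-Ezh2-KO libraries lay on both sides. The mean was 1.03 ± 0.183 RPKM (SD over n = 5) in WT and 1.60 ± 0.233 RPKM (SD over n = 5) in Tie2-Ezh2-KO EMPs, a difference of 0.56 on the log2 scale that rests on 27 to 143 reads per library. *Bmi1* was the more abundant of the pair in every group, with a mean of 11.9 times the RPKM of *Pcgf2* in WT, 25.7 times in Tie2-Ezh2-KO and 13.7 times in Vav-Ezh2-KO EMPs.

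Of the 10 genes, 6 were higher and 4 lower on average in Tie2-Ezh2-KO than in WT EMPs. Apart from *Bmi1* and *Pcgf2*, their differences ran from -0.17 for *Cbx7* to 0.14 for *Pcgf5* on the log2 scale. In 2 of the 10, *Bmi1* and *Pcgf2*, all Tie2-Ezh2-KO libraries lay above all WT libraries, beside 466 of 14154 genes tested (3.29%), and in 0 of the 10 they all lay below, beside 101 genes (0.714%). *Bmi1* was chosen for this difference, so its place in the first count was fixed in advance. *Pcgf2* cleared the WT libraries by a small margin, and the first count is no sign of an excess among the 10 genes. Across all genes tested, limma called 386 (2.73%, 343 higher and 43 lower) in this comparison, and 1552 were at an unadjusted p under 0.05, with a median difference of 0.01.

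The remaining PCGF genes encode the subunits that define variant PRC1. *Pcgf5* was the most abundant of the 6 PCGF genes in WT, at 31.1 to 38.1 RPKM, with 36.5 to 42.4 RPKM in Tie2-Ezh2-KO and 26.5 to 41.0 RPKM in Vav-Ezh2-KO EMPs. *Pcgf1*, the partner of KDM2B and BCOR, was at 15.3 to 20.3 RPKM in WT, 15.1 to 26.1 RPKM in Tie2-Ezh2-KO and 13.4 to 24.8 RPKM in Vav-Ezh2-KO EMPs. *Pcgf3*, the paralog that shares partners with *Pcgf5*, was at 2.75 to 5.95 RPKM in WT, 2.63 to 5.95 RPKM in Tie2-Ezh2-KO and 3.10 to 4.34 RPKM in Vav-Ezh2-KO EMPs. For these 3 genes the libraries of both knockouts overlapped with WT.

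*Pcgf6*, whose product joins MGA, MAX and E2F6 in a variant complex, was at 29.9, 28.2 and 26.7 RPKM in replicates 4, 10 and 12 of Tie2-Ezh2-WT and at 26.6 and 28.0 RPKM in replicates 4 and 6 of Vav-Ezh2-WT. It was at 28.3, 20.3, 22.3, 32.7 and 29.1 RPKM in replicates 7, 9, 11, 13 and 17 of Tie2-Ezh2-KO and at 24.5, 22.2, 23.5, 25.5 and 20.7 RPKM in replicates 1, 9, 10, 26 and 28 of Vav-Ezh2-KO. The WT libraries lay close together, the Tie2-Ezh2-KO libraries on both sides of them, and all 5 Vav-Ezh2-KO libraries below them.

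Summed over the 6 PCGF genes, the level was 97.5 ± 4.78 RPKM (SD over n = 5) in WT, 129.8 ± 9.18 RPKM (SD over n = 5) in Tie2-Ezh2-KO and 95.8 ± 5.65 RPKM (SD over n = 5) in Vav-Ezh2-KO EMPs. Without *Bmi1* the sums were 85.7 ± 4.19, 89.5 ± 5.62 and 81.1 ± 3.84 RPKM (SD, n = 5 each), so most of the difference in Tie2-Ezh2-KO EMPs was *Bmi1* itself. *Bmi1* made up 12.1 ± 1.96% of the PCGF sum in WT (10.9% to 15.5%), 30.8 ± 4.43% in Tie2-Ezh2-KO (25.8% to 37.1%) and 15.2 ± 4.49% in Vav-Ezh2-KO EMPs (10.9% to 21.5%; SD, n = 5 each).

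**Figure D2:**
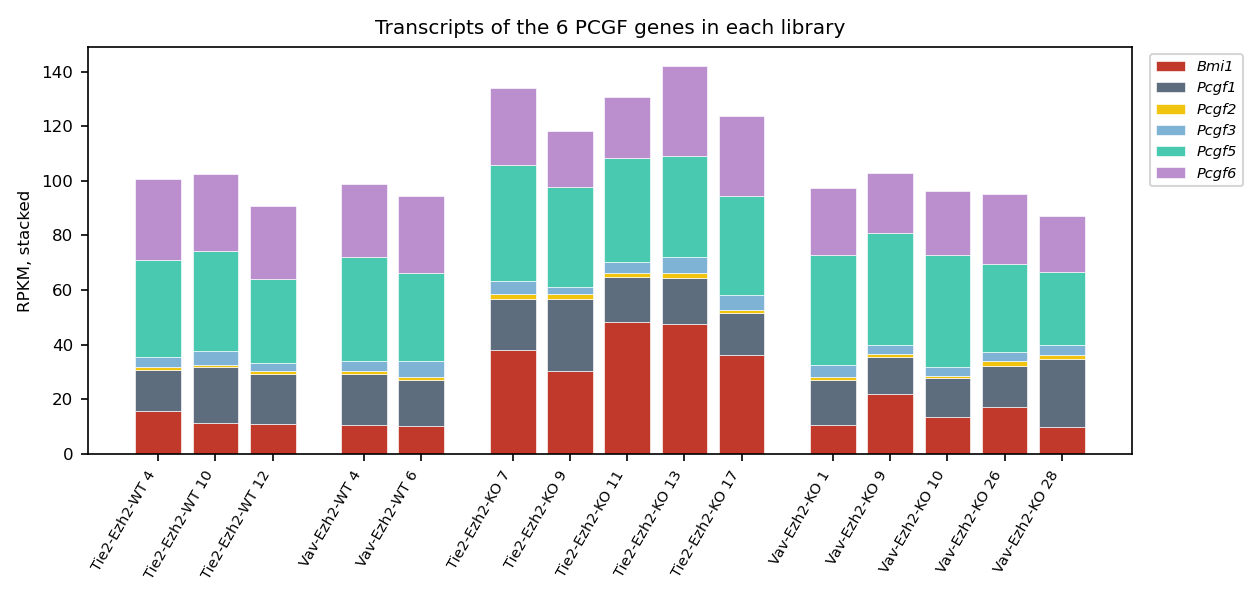
Levels of the 6 PCGF genes in RPKM, stacked from 0 for each of the 15 libraries, which are named by group and replicate. *Bmi1*, at the base of each bar, makes up 25.8% to 37.1% of the bar in Tie2-Ezh2-KO libraries and 10.9% to 21.5% in the others.

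Among the catalytic subunits, *Rnf2*, which encodes RING1B, held 97.6% to 99.9% of the summed RPKM of *Ring1* and *Rnf2* in each of the 15 libraries. *Rnf2* averaged 48.9 ± 8.51 RPKM (SD over n = 5) in WT, 48.6 ± 4.42 RPKM (SD over n = 5) in Tie2-Ezh2-KO and 49.9 ± 9.73 RPKM (SD over n = 5) in Vav-Ezh2-KO EMPs. *Ring1*, which encodes RING1A, was between 0.0643 and 0.805 RPKM, from 2 to 47 reads per library, so small differences in it were not detectable at this depth.

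The CBX subunits of canonical PRC1 read the histone methylation placed by PRC2. *Cbx8* was at 6.00, 6.81 and 8.14 RPKM in replicates 4, 10 and 12 of Tie2-Ezh2-WT, at 4.39 and 4.82 RPKM in replicates 4 and 6 of Vav-Ezh2-WT, at 6.76, 3.48, 5.67, 6.24 and 5.98 RPKM in replicates 7, 9, 11, 13 and 17 of Tie2-Ezh2-KO, and at 3.81, 4.91, 3.32, 2.93 and 5.33 RPKM in replicates 1, 9, 10, 26 and 28 of Vav-Ezh2-KO. The 3 Tie2-Ezh2-WT libraries were above both Vav-Ezh2-WT libraries and all Vav-Ezh2-KO libraries, while Vav-Ezh2-KO and Vav-Ezh2-WT libraries overlapped. *Cbx7* was at 0.996, 1.25 and 0.961 RPKM in replicates 4, 10 and 12 of Tie2-Ezh2-WT, at 0.650 and 0.693 RPKM in replicates 4 and 6 of Vav-Ezh2-WT, at 0.521, 0.384, 0.420, 1.55 and 1.65 RPKM in replicates 7, 9, 11, 13 and 17 of Tie2-Ezh2-KO, and at 0.490, 0.845, 0.287, 0.270 and 0.638 RPKM in replicates 1, 9, 10, 26 and 28 of Vav-Ezh2-KO. It split the Tie2-Ezh2-KO libraries, with replicates 13 and 17 above every WT library and replicates 7, 9 and 11 below every WT library, on 9 to 120 reads per library over all groups.

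By mean RPKM in WT the order was *Rnf2*, *Pcgf5*, *Pcgf6*, *Pcgf1*, *Bmi1*, *Cbx8*, *Pcgf3*, *Pcgf2*, *Cbx7* and *Ring1*. Neighbours whose WT libraries overlapped in range were *Rnf2* with *Pcgf5*, *Pcgf1* with *Bmi1*, *Cbx8* with *Pcgf3*, and *Pcgf2* with *Cbx7*, and the other neighbours were apart. In Tie2-Ezh2-KO EMPs *Bmi1* stood in place 2 instead of 5, between *Rnf2* and *Pcgf5* and overlapping with both, and the other 9 kept their order. *Bmi1* exceeded *Pcgf6* in 5 of 5 and *Pcgf5* in 2 of 5 Tie2-Ezh2-KO libraries, and exceeded neither in any WT or Vav-Ezh2-KO library. In Vav-Ezh2-KO EMPs the order was that of WT except that *Ring1* and *Cbx7*, whose ranges overlapped, changed places at the end.

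The Vav-Ezh2-KO comparison asked whether deletion of *Ezh2* from the start of the hematopoietic stage went with a difference in PRC1 subunits. It did not itself choose the genes, but it used the same WT libraries as the comparison that did. Its test of *Bmi1* is therefore not independent of that choice. With limma, 0 of the 10 genes passed an adjusted p of 0.05, beside 1 of 13646 genes tested (0.00733%). That gene, *Sva*, is named after its values were seen. At an unadjusted p under 0.05 there were 3 of the 10 genes and 1082 of all genes, and limma-voom on recovered reads called 0 of the 10 and 0 of all genes. The count over all genes was 2 when Tie2-Ezh2-WT replicate 10 or 12 or Vav-Ezh2-WT replicate 4 was left out.

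The difference in *Bmi1* in Vav-Ezh2-KO EMPs was 0.27 (log2, standard error 0.20, 95% interval -0.17 to 0.70, limma adjusted p = 0.766), with 2 of 5 libraries above all WT libraries. It was 0.11 without Vav-Ezh2-KO replicate 9, the highest, 0.39 without replicate 28, the lowest, and 0.41 with only the 2 Vav-Ezh2-WT libraries as control. The 3 genes with an unadjusted p under 0.05 were all lower on average. *Pcgf6* differed by -0.26 (standard error 0.09, 95% interval -0.46 to -0.06, limma adjusted p = 0.544), *Cbx8* by -0.55 (standard error 0.22, 95% interval -1.01 to -0.09, limma adjusted p = 0.573) and *Cbx7* by -0.69 (standard error 0.29, 95% interval -1.32 to -0.07, limma adjusted p = 0.604). Against the 2 Vav-Ezh2-WT libraries alone the differences of *Cbx8* and *Cbx7* were smaller, at -0.21 and -0.37. Only for *Pcgf6* did all Vav-Ezh2-KO libraries lie below all WT libraries, 1 of 10 genes beside 110 of 13646 (0.806%). All Vav-Ezh2-KO libraries lay above all WT libraries for 0 of the 10, beside 82 genes (0.601%).

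Over the 10 genes, 5 were higher and 5 lower on average in Vav-Ezh2-KO EMPs, with differences from -0.69 to 0.27 and a median of -0.02 over all genes tested. For *Pcgf5* and *Rnf2*, whose differences were nearest to 0, the 95% intervals were -0.22 to 0.32 and -0.31 to 0.36. The 2 knockouts were not tested against each other for these 10 genes, because that contrast holds the one that chose them.

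**Figure D3:**
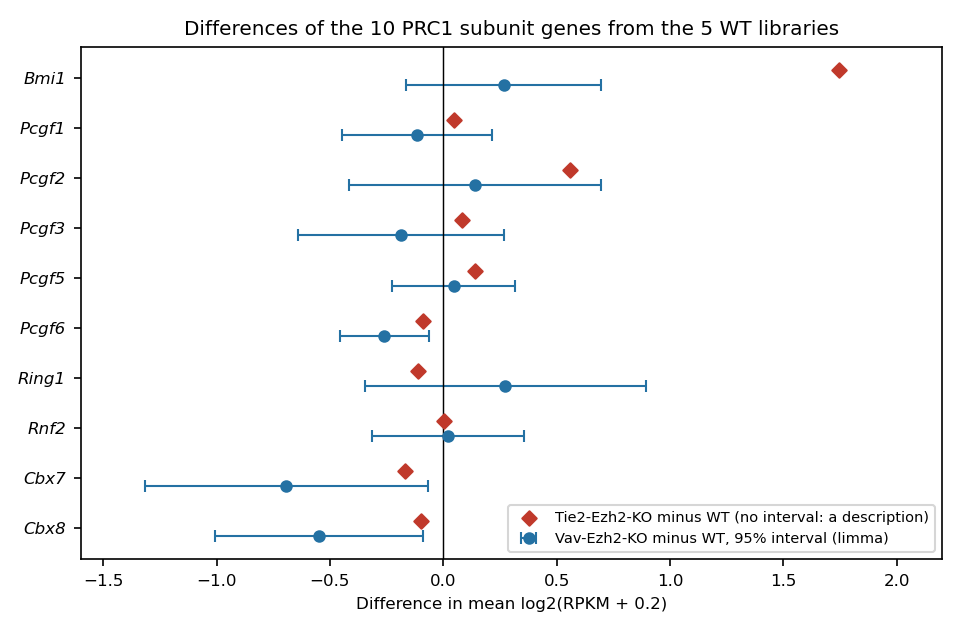
Difference of each of the 10 PRC1 subunit genes from the 5 WT libraries, in mean log2(RPKM + 0.2), for Tie2-Ezh2-KO (diamonds, with no interval because this contrast chose the genes) and Vav-Ezh2-KO EMPs (circles with the 95% interval from limma). The difference of *Bmi1* is 1.75 in Tie2-Ezh2-KO and 0.27 in Vav-Ezh2-KO EMPs.

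The 2 sets of control libraries were also compared with each other. Between Tie2-Ezh2-WT and Vav-Ezh2-WT EMPs limma called 0 of the 10 genes and 20 of 13100 genes tested (0.153%), with 1 of the 10 and 1168 of all genes at an unadjusted p under 0.05, and no other tool was run. The count over all genes rested on single libraries, being 99 without Tie2-Ezh2-WT replicate 12, 13 without Tie2-Ezh2-WT replicate 4 and 0 without Tie2-Ezh2-WT replicate 10 or either Vav-Ezh2-WT library. The gene at an unadjusted p under 0.05 was *Cbx8*, higher by 0.57 in Tie2-Ezh2-WT EMPs (standard error 0.24, limma adjusted p = 0.537). *Cbx7* differed by 0.53 (limma adjusted p = 0.748) and *Bmi1* by 0.24 (limma adjusted p = 0.787), or by 0.09 without Tie2-Ezh2-WT replicate 4.

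The gene nearest to *Bmi1*, *Commd3*, ends 786 bases before it, from 18672435 to 18676231 on chromosome 2, and encodes a COMM domain protein of endosomal sorting. *Commd3* was at 135.8, 128.2 and 147.0 RPKM in replicates 4, 10 and 12 of Tie2-Ezh2-WT, at 114.5 and 114.4 RPKM in replicates 4 and 6 of Vav-Ezh2-WT, at 177.6, 268.6, 184.4, 157.2 and 168.9 RPKM in replicates 7, 9, 11, 13 and 17 of Tie2-Ezh2-KO, and at 135.5, 187.7, 172.1, 127.5 and 142.1 RPKM in replicates 1, 9, 10, 26 and 28 of Vav-Ezh2-KO. All Tie2-Ezh2-KO libraries lay above all WT libraries, and Vav-Ezh2-KO replicates 9 and 10 did so too. In Tie2-Ezh2-KO EMPs *Commd3* was called higher by 0.56 (standard error 0.14, limma adjusted p = 0.0433). This call was lost in 11 of 17 alternative fits, including 7 of the 10 that left out a library (all but those without Tie2-Ezh2-KO replicate 9 or 13 or Tie2-Ezh2-WT replicate 12), with adjusted p between 0.0155 and 0.318 over all alternatives and 0.318 when only the 3 Tie2-Ezh2-WT libraries served as control. In Vav-Ezh2-KO EMPs *Commd3* differed by 0.25 (standard error 0.11, limma adjusted p = 0.628).

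Tie2-Ezh2-KO replicate 9 was the highest for *Commd3* and the lowest of its group for *Bmi1*, while Vav-Ezh2-KO replicate 9 was the highest of its group for both. Of the other 5 neighbouring genes in the table, 3 on each side of *Bmi1* being looked at, 4 were tested and none passed in Tie2-Ezh2-KO EMPs. *Spag6*, a sperm flagellum gene 7.38 kb after *Bmi1*, was at 0.410 RPKM or less in every library and differed by -0.46 (limma adjusted p = 0.772). *Pip4k2a*, a lipid kinase gene 156 kb after it, differed by -0.14 (limma adjusted p = 0.895), with -0.02 without Tie2-Ezh2-KO replicate 9 and -0.25 without replicate 13. *Dnajc1*, a co-chaperone gene 283 kb before it, differed by -0.01 (limma adjusted p = 0.996), and *Mllt10*, a cofactor gene of histone methylation 465 kb before it, by -0.34 (limma adjusted p = 0.635). The fifth, *4930426L09Rik*, was under the filter on low values and was not tested.

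The partners of these subunits were taken from 3 lists of 39 genes in all. With limma, 0 of the 38 tested passed in Tie2-Ezh2-KO EMPs, 3 of them at an unadjusted p under 0.05, with a median difference of -0.06, beside 386 and 1552 of 14154 genes. In Vav-Ezh2-KO EMPs 0 of 37 passed with limma, 2 of them at an unadjusted p under 0.05, with a median of -0.02, beside 1 and 1082 of 13646 genes. In the interaction, which sets Tie2-Ezh2-KO minus Tie2-Ezh2-WT against Vav-Ezh2-KO minus Vav-Ezh2-WT and so does not use the pooled controls, limma called 0 of 38, 1 of them at an unadjusted p under 0.05, beside 26 of 14394 genes (0.181%) and 942 at an unadjusted p under 0.05. That count of 26 was between 8 and 17 when 1 of 11 libraries was left out, all except replicates 9 and 13 of Tie2-Ezh2-KO and replicates 9 and 26 of Vav-Ezh2-KO.

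In canonical PRC1, the 9 other genes had a median difference of -0.18 in Tie2-Ezh2-KO EMPs, with 4 higher, 5 lower and none called. *Cbx2*, another reader of PRC2 methylation, averaged 1.05 ± 0.283 RPKM (SD over n = 5) in WT and 2.35 ± 1.71 RPKM (SD over n = 5) in Tie2-Ezh2-KO EMPs (difference 0.74, limma adjusted p = 0.671). This difference was 0.43 without Tie2-Ezh2-KO replicate 13 and 1.16 without replicate 9. *Phc2* was the most abundant of the Polyhomeotic genes, which encode the oligomerizing subunits, at 15.6 ± 2.97 RPKM (SD over n = 5) in WT, followed by *Phc1* at 5.04 ± 1.56 RPKM (SD over n = 5). In Vav-Ezh2-KO EMPs the 9 genes had a median of -0.02.

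In variant PRC1, 23 genes had a median difference of -0.06 in Tie2-Ezh2-KO EMPs, with 9 higher, 14 lower and none called. The 3 at an unadjusted p under 0.05 included *E2f6*, a repressor of the E2F family, which had the lowest adjusted p, at 41.0 ± 4.62 RPKM (SD over n = 5) in WT and 51.2 ± 6.61 RPKM (SD over n = 5) in Tie2-Ezh2-KO EMPs (difference 0.32, limma adjusted p = 0.287). *Max*, the dimer partner of MGA, was at 12.1 ± 4.35 RPKM (SD over n = 5) in WT and 7.62 ± 1.62 RPKM (SD over n = 5) in Tie2-Ezh2-KO EMPs (difference -0.59, limma adjusted p = 0.377). *Auts2*, the partner of *Pcgf3* and *Pcgf5* products, differed by 0.55 (limma adjusted p = 0.446) from a level of 0.0704 RPKM in WT. Of the paralogs that take the place of a CBX protein at RING1B, *Yaf2* was at 54.3 ± 7.71 RPKM (SD over n = 5) and *Rybp* at 1.32 ± 0.190 RPKM (SD over n = 5) in WT. *Kdm2b*, which brings PCGF1 complexes to CpG islands, was at 11.9 ± 2.33 RPKM (SD over n = 5) and *Bcor* at 2.30 ± 0.583 RPKM (SD over n = 5) in WT.

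The enzymes that remove the PRC1 mark were represented by 7 genes for H2A deubiquitylases and their cofactors. Of the 6 tested, none was called in Tie2-Ezh2-KO (median difference -0.10) or Vav-Ezh2-KO EMPs (median -0.07), and *Asxl3* was under the filter. *Bap1*, the catalytic subunit of the ASXL complexes, was the most abundant, at 32.2 ± 6.30 RPKM (SD over n = 5) in WT, 34.9 ± 13.0 RPKM (SD over n = 5) in Tie2-Ezh2-KO and 30.3 ± 4.51 RPKM (SD over n = 5) in Vav-Ezh2-KO EMPs.

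PRC2, which places the methylation read by CBX proteins, had 1 of 11 genes called in Tie2-Ezh2-KO EMPs, the deleted *Ezh2*. That call was lost in 10 of 17 alternatives. Over all genes limma called 386 of 14154 (2.73%). At an unadjusted p under 0.05 with limma there were 3 of the 11, beside 1552 of all genes. On average 1 gene was higher and 10 lower, with a median difference of -0.22 beside 0.01 over all genes tested. The gene higher on average was *Phf19*, an accessory subunit, at 1.03 ± 0.417 RPKM (SD over n = 5) in WT and 2.38 ± 0.989 RPKM (SD over n = 5) in Tie2-Ezh2-KO EMPs (difference 1.002, limma adjusted p = 0.245). Leaving out Tie2-Ezh2-KO replicate 9 gave 1.33 with an adjusted p of 0.0230, in a range of 0.0230 to 0.516 over its alternatives with limma. *Ezh1*, the paralog of *Ezh2*, was at 2.55 ± 0.638 RPKM (SD over n = 5) in WT and 1.72 ± 0.788 RPKM (SD over n = 5) in Tie2-Ezh2-KO EMPs (difference -0.58, limma adjusted p = 0.570). In Vav-Ezh2-KO EMPs limma called 0 of 11, 1 of them at an unadjusted p under 0.05, with a median of -0.15.

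The Ink4 locus, the best known target of BMI1, had few reads or none. *Cdkn2a*, which encodes p16INK4a and ARF, was listed at 0 in all 5 WT and all 5 Vav-Ezh2-KO libraries and at 0.387, 0.576, 0.119, 0.0656 and 0.109 RPKM in replicates 7, 9, 11, 13 and 17 of Tie2-Ezh2-KO. Each Tie2-Ezh2-KO library had some reads, but these were 7 and 10 in replicates 7 and 9 and 2 in each of the other 3. A count of 0 allows up to 3 reads, which is 0.0259 RPKM over the WT libraries together, below every Tie2-Ezh2-KO value, and from 0.0644 to 0.254 RPKM in a single WT library, a range that holds the 3 lower Tie2-Ezh2-KO values. With limma the adjusted p for *Cdkn2a* was 0.108 in Tie2-Ezh2-KO EMPs, between 0.0300 and 0.397 over its alternatives. *Cdkn2b*, which encodes p15INK4b, was at 0 in all WT and Vav-Ezh2-KO libraries and in Tie2-Ezh2-KO replicates 9 and 11, and at 0.360 RPKM or less in the other 3 (limma adjusted p = 0.750). Neither gene passed the filter on low values in the Vav-Ezh2-KO comparison. In the Tie2-Ezh2-KO comparison *Cdkn2a* passed it only through Tie2-Ezh2-KO replicates 7 and 9, and *Cdkn2b* only through replicate 7. Both were thus tested only because of the group in which they were high, so their limma p-values are no support for a difference.

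The 5 genes outside the 10 that ranked highest by likeness to *Bmi1*, by Pearson r of log2(RPKM + 0.2) over 15 libraries among 9878 genes with a mean of at least 1 RPKM, were *Kdelr3*, *Esx1*, *Elovl2*, *Tdrkh* and *Faah*. Because the Tie2-Ezh2-KO libraries stand apart from the rest, this rank favours genes that are high in that group, and no r is given. *Kdelr3*, which encodes a receptor for proteins retained in the endoplasmic reticulum, was at 2.90 to 4.93 RPKM in Tie2-Ezh2-KO EMPs, at 0 in all WT libraries, and at 0.499 and 0.615 RPKM in replicates 9 and 26 of Vav-Ezh2-KO with 0 in the other 3. *Esx1*, a homeobox gene of the placenta, was at 4.0 to 9.02 RPKM in Tie2-Ezh2-KO EMPs and at 0.543 and 0.109 RPKM in replicates 9 and 26 of Vav-Ezh2-KO, and was otherwise at 0 except for 0.180 RPKM in Tie2-Ezh2-WT replicate 4. Both reach a mean of 1 RPKM only through the Tie2-Ezh2-KO libraries. Within that group the highest values of both were in replicate 7 and that of *Bmi1* was in replicate 11, where *Kdelr3* was at 3.72 and *Esx1* at 6.37 RPKM.

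Vav-Ezh2-KO replicates 9 and 26, the highest of their group for *Bmi1*, were among the libraries by which these genes were selected, so high values in them are part of that choice. *Elovl2*, a fatty acid elongase gene, was at 1.94 and 2.11 RPKM in these replicates and at 0.953 to 1.42 RPKM in the other 3. *Faah*, a fatty acid amide hydrolase gene, was at 1.98 and 1.41 RPKM in them and at 0.547 to 1.20 RPKM in the other 3. *Tdrkh*, a gene of the piRNA pathway, was highest in replicate 9, at 10.4 RPKM, while replicate 26, at 6.36 RPKM, lay below replicate 10.

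Markers of other cell types were read beside these values. The sort took LIN− cells. The study's antibodies for sorting include some to antigens of erythroid cells and macrophages. Its text does not say which of them made up LIN. The counts of each marker list stand beside those over all genes tested. There limma called 386 of 14154 in Tie2-Ezh2-KO EMPs (2.73%, 343 higher and 43 lower), with a median difference of 0.01. In Vav-Ezh2-KO EMPs it called 1 of 13646, with a median of -0.02. At an unadjusted p under 0.05 with limma there were 1552 and 1082 genes. Of 5 primitive erythroid genes, 2 were called higher in Tie2-Ezh2-KO EMPs with limma (4 higher and 1 lower on average, median 0.64) and none in Vav-Ezh2-KO EMPs (3 higher and 2 lower, median 0.10). Embryonic globin *Hba-x* was at 0.316 to 2.67 RPKM in WT and at 38.4, 305.4, 338.8, 32.9 and 116.8 RPKM in replicates 7, 9, 11, 13 and 17 of Tie2-Ezh2-KO (difference 6.33, limma adjusted p = 8.88e-05, between 3.05e-05 and 0.0787 over its alternatives, the latter with limma-voom). *Hbb-bh1*, another embryonic globin gene and the most abundant of the list in 14 of 15 libraries, was at 60.1 to 138.9 RPKM in WT and at 157.7 to 507.8 RPKM in Tie2-Ezh2-KO EMPs (difference 1.18, limma adjusted p = 0.0441). This call was lost in 12 of 17 alternatives, 8 of which left out a library, all but Tie2-Ezh2-KO replicates 13 and 17, with adjusted p between 0.0248 and 0.246. The 5 genes summed to 172.8, 147.8 and 166.6 RPKM in replicates 4, 10 and 12 of Tie2-Ezh2-WT, to 95.7 and 142.7 RPKM in replicates 4 and 6 of Vav-Ezh2-WT, to 351.4, 612.8, 890.2, 228.8 and 318.7 RPKM in replicates 7, 9, 11, 13 and 17 of Tie2-Ezh2-KO, and to 109.3, 157.8, 84.0, 180.1 and 178.7 RPKM in replicates 1, 9, 10, 26 and 28 of Vav-Ezh2-KO. The sums of all Tie2-Ezh2-KO libraries lay above those of all others. Within that group *Bmi1* was about as high in replicate 13, which had the lowest sum, as in replicate 11, which had the highest. Within Vav-Ezh2-KO EMPs *Hba-x* was at 8.51 and 4.06 RPKM in replicates 9 and 26, the 2 highest for *Bmi1*, and at 0.697 to 1.48 RPKM in the other 3. The part of these cells in the level of *Bmi1* was not tested.

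Visceral endoderm markers, 9 genes, stood out in 2 libraries. They summed to 222.9 RPKM in Tie2-Ezh2-WT replicate 4 and to 296.7 RPKM in Tie2-Ezh2-KO replicate 7, against 12.1 to 37.4 RPKM in the other 13, with *Trf* the most abundant in 14 of 15 libraries. *Afp*, the fetal serum protein that defines this layer, was at 48.2 and 59.9 RPKM in these libraries and at 2.44 RPKM or less in the others. Without these libraries *Bmi1* was at 30.5 to 48.5 RPKM in the other 4 Tie2-Ezh2-KO libraries and 10.3 to 11.5 RPKM in the other 4 WT libraries, and its difference was 1.86. Of 8 tested, limma called 1 in Tie2-Ezh2-KO EMPs, *Amn*, a subunit gene of the cubilin receptor, at 0 to 0.798 RPKM in WT and at 4.66, 1.67, 1.52, 2.08 and 2.21 RPKM in replicates 7, 9, 11, 13 and 17 of Tie2-Ezh2-KO (difference 3.01, limma adjusted p = 0.00155), and 0 of 7 in Vav-Ezh2-KO EMPs, 1 of them at an unadjusted p under 0.05. All 8 were higher on average in Tie2-Ezh2-KO EMPs (median 0.57) and all 7 lower in Vav-Ezh2-KO EMPs (median -0.98), but these counts depended on single libraries. Without Tie2-Ezh2-KO replicate 7, 1 was higher and 6 lower in Tie2-Ezh2-KO EMPs (median -0.19), and without Tie2-Ezh2-WT replicate 4, 2 were higher and 4 lower in Vav-Ezh2-KO EMPs (median -0.09). Without both libraries 7 of 7 were higher in Tie2-Ezh2-KO EMPs (median 0.79).

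For endothelium, the tissue from which EMPs emerge, limma called 0 of 10 genes in either knockout, with 2 at an unadjusted p under 0.05 in each. In Tie2-Ezh2-KO EMPs 8 were higher and 2 lower on average, with a median difference of 0.23 beside 0.01 over all genes tested, and in Vav-Ezh2-KO EMPs 4 were higher and 6 lower, with a median of -0.20 beside -0.02. Their sums were 154.3 to 185.8 RPKM in WT, 158.3 to 180.7 RPKM in Tie2-Ezh2-KO and 136.2 to 174.8 RPKM in Vav-Ezh2-KO EMPs, led by *Egfl7*, while the defining junction genes *Cdh5* and *Cldn5* were under 1 RPKM on average. For megakaryocytes, 1 of 7 was called lower in Tie2-Ezh2-KO EMPs, the platelet glycoprotein gene *Gp1ba* (difference -0.94, limma adjusted p = 0.0495). That call was lost in 13 of 17 alternatives, including every fit that left out a library except those without Tie2-Ezh2-KO replicate 13 or Tie2-Ezh2-WT replicate 12, with adjusted p between 0.0174 and 0.250. On average 1 of the 7 was higher and 6 lower in Tie2-Ezh2-KO (median -0.08), and 4 higher and 3 lower in Vav-Ezh2-KO EMPs (median 0.18). The 7 genes summed to 141.5 to 362.9 RPKM in WT, 181.7 to 307.9 RPKM in Tie2-Ezh2-KO and 155.8 to 294.8 RPKM in Vav-Ezh2-KO EMPs.

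Macrophage genes summed to 65.1 to 101.4 RPKM in WT, 70.7 to 80.4 RPKM in Tie2-Ezh2-KO and 65.9 to 157.7 RPKM in Vav-Ezh2-KO EMPs, most of it *Lyz2*, with *C1qa* at 0 in every library. Limma called 0 of 7 of them in either knockout, with 1 at an unadjusted p under 0.05 in Tie2-Ezh2-KO (2 higher and 5 lower, median -0.15) and 0 in Vav-Ezh2-KO EMPs (4 higher and 3 lower, median 0.27). Mesenchyme genes summed to 3.29 RPKM or less in every library, with *Pdgfrb* the most abundant over all libraries and 7 of the 8 under 1 RPKM on average. Limma called 0 of the 4 tested in either knockout, with 0 at an unadjusted p under 0.05, and 1 higher and 3 lower in each (medians -0.23 and -0.27). For the 8 EMP markers limma called 0 in either knockout, with 3 at an unadjusted p under 0.05 in Tie2-Ezh2-KO (1 higher and 7 lower on average, median -0.21) and 1 in Vav-Ezh2-KO EMPs (3 higher and 5 lower, median -0.08), and their sums were 285.2 to 362.4 RPKM in WT, 207.0 to 324.3 RPKM in Tie2-Ezh2-KO and 241.1 to 433.5 RPKM in Vav-Ezh2-KO EMPs. The part of any of these cells in the values of the PRC1 subunit genes was not tested.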

How the data were processed

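RNA of 15 EMP libraries had been sequenced as 75 bp single-end reads. The authors aligned them to GRCm38 with TopHat2 2.0.13, counted them per gene with featureCounts and deposited RPKM on a linear scale for 17454 genes. The authors' own count test, DESeq2, was not run here.

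Total reads per library were recovered from the smallest steps of RPKM, each total being given by 144 or more genes of a single exon. All 16877 genes above 0 then came out as whole reads (tolerance 0.001). Totals were between 10407398 and 41025074, with a median of 16091836. Each library is from an individual YS and counts as 1 replicate. Replicates differed by more than counting noise (chi-square from 16.4 to 133.3 per gene over 24 pairs). Separate embryos would do so in any case, so nothing was concluded from this.

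Tests were made with limma 3.58.1 (lmFit, then eBayes with trend) in R 4.3.3 on log2(RPKM + 0.2). Genes entered a fit when 1 or more of its libraries exceeded 0.2 RPKM. P-values were adjusted by Benjamini-Hochberg over all genes tested, with a threshold of 0.05. All 10 PRC1 subunit genes passed this filter in every fit. The comparisons were each knockout against 5 WT libraries, the WT sets against each other, and an interaction of the 2 knockout effects, each against its own WT set, over all 15 libraries. The labels do not assign libraries to experiments, so no batch term was used. Tables and figures were made with Python 3.11.15, pandas 2.3.3, numpy 2.4.6 and matplotlib 3.10.9. The code was tested on simulated data.

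The PRC1 subunit genes and the lists were chosen with earlier results of these data known. Named genes were the 10 subunit genes, list genes that passed the threshold or describe a complex or the sort, the 5 genes most like *Bmi1*, and 3 neighbours on each side of it. The marker lists covered EMPs, endothelium, primitive erythroid cells, visceral endoderm, macrophages, megakaryocytes and mesenchyme. The values of some list genes are not reported here. *Sox17* and *Adgre1* were not in the table, and *Emr1*, the older symbol of the latter, was.

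The alternatives were a pseudocount of 1, quantile normalization, the corresponding WT libraries only, no filter, all 15 libraries in one fit, limma-voom on recovered reads, and leaving out each library. Leaving out both libraries highest in visceral endoderm markers was chosen after seeing the data, as were all alternatives for the interaction, for the neighbours of *Bmi1*, for *Ezh2* in Vav-Ezh2-KO EMPs, for the visceral endoderm list and for the subunit genes between the WT sets.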

Additional observations from a re-analysis of the deposited data

Results flagged for a closer look

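In groups of 5 libraries, a value was singled out when the gap to its nearest neighbour took up more than the Dixon limit of the whole range, which chance does in about 1 in 20 groups. This was so in 11 of 64 groups looked at, 4 of them among the 30 groups of the PRC1 subunit genes.

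Among the PRC1 subunit genes, *Bmi1* was at 15.6 RPKM in Tie2-Ezh2-WT replicate 4, against 10.3 to 11.5 RPKM in the other 4 WT libraries. *Pcgf1* was at 24.8 RPKM in Vav-Ezh2-KO replicate 28, against 13.4 to 16.4 RPKM in its group. *Rnf2* was at 33.1 RPKM in the same library, against 50.1 to 56.6 RPKM. *Pcgf5* was at 42.4 RPKM in Tie2-Ezh2-KO replicate 7, against 36.5 to 38.2 RPKM.

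The neighbour of *Bmi1*, *Commd3*, was at 268.6 RPKM in Tie2-Ezh2-KO replicate 9, against 157.2 to 184.4 RPKM in the rest of the group. Visceral endoderm markers summed to 222.9 RPKM in Tie2-Ezh2-WT replicate 4, against 19.5 to 28.4 RPKM in the other WT libraries, and to 296.7 RPKM in Tie2-Ezh2-KO replicate 7, against 25.6 to 37.4 RPKM. Of this list, *Amn* was at 0.798 RPKM in Tie2-Ezh2-WT replicate 4, against 0 to 0.119 RPKM, and at 4.66 RPKM in Tie2-Ezh2-KO replicate 7, against 1.52 to 2.21 RPKM. It was at 0.176 RPKM in Vav-Ezh2-KO replicate 10, with 0 in the other 4. Megakaryocyte markers summed to 307.9 RPKM in Tie2-Ezh2-KO replicate 9, against 181.7 to 188.4 RPKM.

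The effects of both knockouts, each taken against its own WT set (3 and 2 libraries) and not the pooled 5, differed for 1 list gene, *Hba-x*, by 6.41 on the log2(RPKM + 0.2) scale (standard error 1.24, limma adjusted p = 0.0457), and its values were 32.9 to 338.8 RPKM in Tie2-Ezh2-KO and 0.697 to 8.51 RPKM in Vav-Ezh2-KO EMPs.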

How the results depend on the processing

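The difference of *Bmi1* in Tie2-Ezh2-KO EMPs stayed between 1.65 and 1.86 in 14 alternatives, and between 1.67 and 1.85 when single libraries were left out. These values describe the contrast that chose *Bmi1* and are no test of it. None of the 160 alternative values of the 10 genes in Vav-Ezh2-KO EMPs passed the threshold (lowest limma adjusted p = 0.372), nor did any of 60 between the WT sets (lowest 0.474).

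The 386 genes called in Tie2-Ezh2-KO EMPs became 187 against the corresponding WT libraries only, a fit with fewer samples, and 217 without both libraries highest in visceral endoderm markers, an alternative chosen after seeing the data. Leaving out single libraries gave 262 to 438. The 1 gene called in Vav-Ezh2-KO EMPs became 2 against the corresponding WT libraries only and 0 with limma-voom (1197 at an unadjusted p under 0.05), and 1 to 2 when single libraries were left out. The 20 genes between the WT sets became 0 to 99 when single libraries were left out, and the 26 of the interaction 8 to 32, or 9 without both visceral endoderm libraries. The cause was not tested. A fit without a Vav-Ezh2-WT library leaves 1 that is assumed to vary like the others.

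Some differences near 0, none past the threshold, changed sign. In Vav-Ezh2-KO EMPs, leaving out single libraries gave -0.00410 to 0.15 for *Pcgf5*, -0.0829 to 0.16 for *Rnf2* and -0.10 to 0.0151 for *Ezh2*, which was 0.00104 with quantile normalization. Between the WT sets it gave -0.0806 to 0.12 for *Pcgf1*, -0.23 to 0.20 for *Pcgf2*, -0.15 to 0.10 for *Pcgf5* and -0.15 to 0.20 for *Rnf2*. In Tie2-Ezh2-KO EMPs *Dnajc1* was -0.11 to 0.14 without single libraries, 0.12 against the corresponding WT libraries only and 0.00137 with a pseudocount of 1. The cause was not tested.

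Calls of list genes and neighbours in Tie2-Ezh2-KO EMPs were lost in 1 of 17 alternatives for *Hba-x*, 10 for *Ezh2*, 11 for *Commd3*, 12 for *Hbb-bh1*, 13 for *Gp1ba* and 0 for *Amn*. *Phf19* and *Cdkn2a* passed in 1 each, without Tie2-Ezh2-KO replicate 9 and with all 15 libraries in one fit. *Cdkn2a* entered its fits only through Tie2-Ezh2-KO libraries, so its pass is no support for a difference. No paired analysis was possible because the labels do not say which libraries form pairs, and a shared replicate number does not mark a pair.

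With 5 libraries a group and 2 in Vav-Ezh2-WT, intervals were wide. *Ring1*, *Cbx7* and *Pcgf2* rest on few reads. RPKM per gene does not separate isoforms or the deleted exons of *Ezh2*.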
